A study of Danio rerio with 12 samples.

Results

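Translation initiation and elongation factors are the proteins that bring the ribosome to a messenger RNA and move it along. Their transcripts were followed here in liver RNA of adult wild-type zebrafish (Danio rerio), in 12 libraries. The members are the genes whose symbol starts with eif or eef and a digit, without the eIF2 kinases, and they were chosen by symbol. Of 14581 genes in the table, 69 carried such a symbol. Of these, 65 reached 1 FPKM in 3 or more libraries and so belong to the 9190 genes tested. They are 49 initiation factors, 10 elongation factors (eIF5A is counted here, since it acts during elongation), 5 genes that repress translation and 1 partner of eIF4E. The 4 that missed the filter, eef1a1a, eef1a1b, eef1a2 and eef2a.2, reached at most 1.45 FPKM in any library. The nearest member inside it was eif4e2, with a third-highest value of 1.97 FPKM, and the nearest outside was eef2a.2, with 0.328 FPKM.

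The 4 groups of 3 libraries were females given β-estradiol, females given DMSO, males given β-estradiol and males given DMSO. All fish were wild type, were moved to individual tanks at 3 months after fertilization and received β-estradiol or its solvent DMSO every day for 6 weeks. Whether the 3 libraries of a group are separate fish is not stated, and p-values therefore speak of the spread among libraries, which may be technical. Library numbers run over 19 to 24 in the estradiol groups and 7 to 12 in the DMSO groups, and an effect of the library set and one of the treatment cannot be told apart.

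An initiator tRNA is carried to the small ribosomal subunit by eIF2, which the exchange factor eIF2B recharges with GTP. The large complex eIF3 joins that subunit to the messenger RNA, which is held at its cap by eIF4E, bridged by eIF4G and unwound by the helicase eIF4A with its helper eIF4B. The eIF4E-binding proteins (eif4ebp genes) hold eIF4E and block its bridging by eIF4G until mTOR phosphorylates them. The eEF2 kinase (eef2k) slows elongation by phosphorylating eEF2, the factor that moves the ribosome forward. Elongation also needs eEF1A, which delivers each aminoacyl-tRNA, and the eEF1 exchange complex, which reloads eEF1A with GTP. Liver is a tissue of heavy protein synthesis and secretion, and the title of the study names PI3K/mTOR signalling as the pathway downstream of the estrogen receptor GPER1.

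Values are FPKM, read fragments set against the length of a transcript and the mapped fragments, as the authors deposited them, and their depth is unknown. The FPKM of a library summed to 304905 to 1217095. Over the 24 oocyte markers in the table, the mean log2(FPKM + 1) was 6.14, 0.20 and 4.33 in female estradiol, 0.64 to 3.16 in female DMSO, 6.30, 1.53 and 5.08 in male estradiol and 0.07 to 0.26 in male DMSO, so replicates 1 and 3 of both estradiol groups are rich in oocyte transcripts. Their summed FPKM ran over 10.96 to 8272, 18.9 to 455, 87.1 to 6513 and 1.40 to 5.68 in the same order of groups, with figla and h1m listed at 0 in all 12 libraries and nanos3 and zp2.5 at 0 in all 3 of male DMSO. The 14 exocrine pancreas markers summed to 111 to 605 FPKM in female estradiol against 2402 to 11075 in female DMSO, and to 108 to 575 in male estradiol against 5273 to 7287 in male DMSO. The 15 intestine markers had mean log2 levels of 5.66 and 5.82 in female DMSO replicates 1 and 2 and of at most 3.39 elsewhere, with summed FPKM of 329.8 to 723, 3177 to 3906, 52.5 to 2385 and 1289 to 2065 in the order of groups above. Much of these sums lay in rbp2b, with 1249, 1006 and 1343 FPKM in male DMSO, and pck1, with 2086 FPKM in male estradiol replicate 2. The marker fabp2 held 612 and 1122 FPKM in female DMSO replicates 1 and 2 and at most 23.6 FPKM in male DMSO. The 10 blood and leukocyte markers in the table had mean log2 levels of 3.00 to 3.48, 3.36 to 3.56, 2.23 to 3.32 and 3.32 to 3.85. At least 13 of the 16 hepatocyte markers in the table were at 1 FPKM or more in every library, and their summed FPKM ran over 35649 to 55997 in female estradiol, 82823 to 105946 in female DMSO, 25729 to 138008 in male estradiol and 97716 to 116272 in male DMSO. Of these markers, tfa was listed at 0 in all 6 DMSO libraries of both sexes, and apoa2 and apoa1b in all 3 of male DMSO. In bulk tissue, fewer cells of a type and less RNA per cell cannot be told apart.

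Most translation factor genes had higher FPKM in female DMSO livers than in male DMSO livers, and most had lower FPKM in female estradiol livers than in female DMSO livers. In females against males under DMSO, all 3 female libraries lay above all 3 male libraries for 43 of 65 members and below them for 0, where 18.6% and 12.2% of all genes tested did so. The median log2 difference of the members was 0.68, and that of all genes tested was 0.05. The members stood at a higher level than all genes tested. Their median log2(FPKM + 1) in a library was 4.73 to 6.29, against 1.97 to 2.94 for all genes. Level can affect how readily groups separate, and its part in the shares and medians of this comparison and the next ones was not tested. In females given estradiol against DMSO, 24 of 65 members lay below without overlap and 0 above (18.8% and 9.98% of all genes), with a member median of -0.54 against -0.08 for all genes. In males given estradiol against DMSO, 6 lay below and 5 above (11.4% and 18.5% of all genes), and the medians were -0.09 and 0.21. The 6 below were eef1da, eif2a, eif3f, eif3g, eif3k and eif4bb, and the 5 above were eif2b3, eif2d, eif4ba, eif4e1b and eif4ea, listed after their values were seen. The male counts moved with the processing. After scaling without the 10 highest genes, 3 lay below and 15 above (8.14% and 25.2% of all genes). Without male estradiol replicate 2, 20 lay below and 8 above (23.5% and 35.0% of all genes). The estradiol contrast in females and the sex contrast under DMSO share the female DMSO libraries. When libraries were scaled without their 10 highest genes, the all-gene median shifted by more than 0.1 in each contrast, to 0.19 in females, 0.61 in males and -0.12 between the sexes under DMSO. The member medians then were -0.22, 0.38 and 0.45, so that the male one changed sign, while in all 3 the members lay on the same side of all genes as without scaling. After quantile normalization the male medians were 0.01 for the members and -0.05 for all genes, so that the members there lay above all genes. Without female DMSO replicates 1 and 2, the libraries with high intestine markers, 48 members lay higher in females under DMSO and 36 lower in females given estradiol without overlap, where 32.8% and 31.5% of all genes did so. Without the 4 oocyte-rich libraries 52 lay lower in females given estradiol, where 46.5% of all genes did so. Groups cut to 1 library overlap less readily, so these shares are higher throughout. Of the 16 hepatocyte markers, 11 also lay lower without overlap in females given estradiol, with a median log2 change of -1.03, and 5 in males, with -1.02. Under DMSO, 9 of them were lower in females than in males, with a median of -0.93, and their part in the members' values was not tested. Between female and male libraries of the estradiol groups, 1 member lay above and 3 lay below without overlap, against 2.62% and 9.68% of all genes.

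Few single members passed the test. Limma with Benjamini-Hochberg adjustment over 9190 genes called 4 members lower in females given estradiol, eif4ebp3, eef2k, eif4a2 and eif4bb, and 0 higher (2.24% and 0.490% of all genes). Under DMSO it called 1 member higher in females, eif4ebp3, and 0 lower (0.239% and 0.316% of all genes). The fit held 1 estimate of the spread per gene for all 4 groups. Spearman correlations between libraries were 0.86 to 0.91 in female DMSO and 0.93 to 0.95 in male DMSO. They were 0.61 to 0.82 in female estradiol and 0.47 to 0.83 in male estradiol. A fit of the 2 DMSO groups only called more members, as counted further below. The part of the shared spread in this was not tested. In males given estradiol limma called 0 of 65 (3.79% of all genes), with 10 at an unadjusted p under 0.05 (26.9% of all genes). The test of the difference between the sexes in the estradiol effect called 0 of 65 (0.261%), with 7 at an unadjusted p under 0.05 (10.7%). Females against males under estradiol gave 0 of 65 (0.109%), with 4 at an unadjusted p under 0.05 (11.1%).

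**Figure D1:**
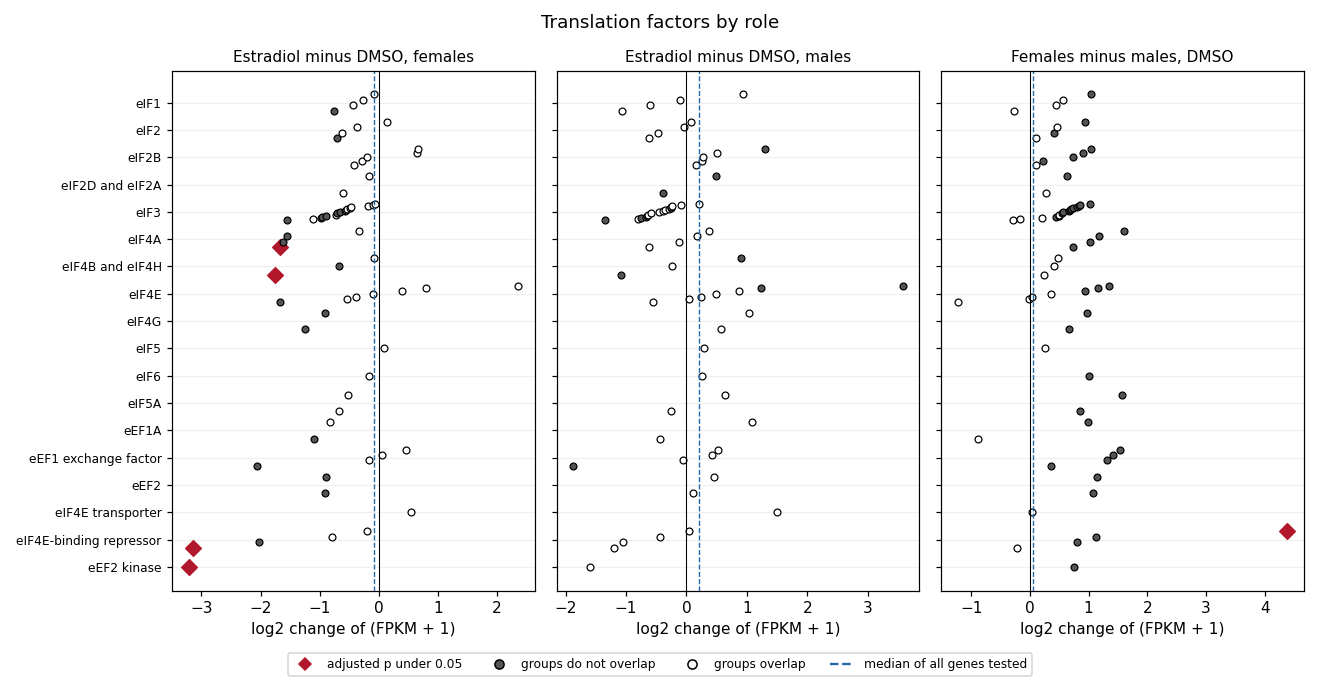
Log2 change of each of the 65 members, as differences of mean log2(FPKM + 1) between groups of 3 libraries, by role of the factor. Diamonds passed an adjusted p of 0.05, filled circles have no overlap between the groups, and the dashed line is the median of all 9190 genes. Most members lie left of that line in females given estradiol and right of it in females against males under DMSO.

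The gene of the eIF4E-binding protein 4E-BP3, eif4ebp3, was the 1 member called both in females given estradiol and between the sexes under DMSO. The symbol is also an older name of eif4ebp3l in RefSeq, and the table lists both symbols, so which of the pair each stands for rests on an annotation that is unknown here. Its level was 139, 109.6 and 134 FPKM in the 3 female estradiol libraries, 1493, 791 and 1219.6 FPKM in female DMSO, 22.1, 15.4 and 34.2 FPKM in male estradiol and 95.2, 79.9 and 19.6 FPKM in male DMSO. Each female DMSO library stood above every library of the other 3 groups, and the female estradiol libraries stood above every male library of either treatment. In females the gene fell under estradiol to 128 ± 15.7 FPKM, against 1168 ± 354 FPKM under DMSO (means with SD, n = 3 libraries, log2 change -3.14, SE 0.56, adjusted p = 0.0148, limma). Under DMSO it averaged 1168 ± 354 FPKM in females and 64.9 ± 39.96 FPKM in males (log2 difference 4.38, SE 0.56, adjusted p = 0.00211). In males given estradiol its mean was 23.9 ± 9.53 FPKM against 64.9 ± 39.96 FPKM under DMSO, a difference that did not pass the test and whose groups overlapped (log2 change -1.20, SE 0.56, adjusted p = 0.193), and the difference between the 2 estradiol effects did not pass either (log2 -1.95, SE 0.79, adjusted p = 0.399). Female DMSO replicate 3, with intestine markers at a mean log2 of 2.91, near the 2.81 to 3.18 of male DMSO, held 1219.6 FPKM. The summed FPKM of these markers in that library was 3556, of which pck1 held 3183, against 1289 to 2065 in male DMSO. The part of intestine transcripts in the eif4ebp3 level was not tested. The female call ended without female DMSO replicate 1 (adjusted p = 0.0785), female estradiol replicate 2 (0.0543) or the 4 oocyte-rich libraries (0.0558) and after scaling without the 10 highest genes (0.0527), with log2 changes of -3.35 to -2.81. Over 24 alternatives the adjusted p in females ran over 0.00701 to 0.292. Both calls ended without female DMSO replicates 1 and 2 together, which leaves 1 library in that group (adjusted p = 0.292 in females and 0.138 between the sexes, with log2 values of -3.25 and 4.49).

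The other 3 binding proteins did not pass the test in any comparison of the fit reported here. The gene of the 4E-BP3-like protein, eif4ebp3l, had 83.6, 23.4 and 42.2 FPKM in female estradiol against 138, 210.2 and 203 FPKM in female DMSO, with no overlap (log2 change -2.02, SE 0.58, adjusted p = 0.0875). In males eif4ebp3l had 41.7, 117 and 24.2 FPKM under estradiol against 121, 107 and 85.4 FPKM under DMSO, where replicate 2 stood within the DMSO range and the others below it. Without male estradiol replicate 2 it passed in both sexes (log2 change -2.02 in females and -1.67 in males, adjusted p = 0.0234 and 0.0364, limma). That fit leaves male estradiol replicates 1 and 3, which are rich in oocyte transcripts. Its female libraries and female log2 change were those of the fit reported here. Without the 4 oocyte-rich libraries, which leaves 1 library in each estradiol group, the log2 change of eif4ebp3l was -2.90 in females and 0.17 in males. The gene of 4E-BP1, the best-studied mTOR substrate of the family, eif4ebp1, had 222, 25.6 and 37.1 FPKM in female estradiol, 96.1, 57.4 and 59.3 FPKM in female DMSO, 40.2, 22.03 and 36.5 FPKM in male estradiol and 45.1, 34.5 and 18.8 FPKM in male DMSO. Estradiol groups overlapped DMSO groups in both sexes, and female estradiol replicate 1 alone set the high mean of its group. For eif4ebp2 the log2 changes under estradiol were -0.79 in females and -0.44 in males (adjusted p = 0.31 and 0.502).

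A proportion within a library does not depend on scaling by 1 factor per library, but quantile normalization can change it. In female estradiol, eif4ebp3 made up 30.1, 62.7 and 54.6% of the summed FPKM of the 4 binding proteins, against 84.6, 72.7 and 80.1% in female DMSO. It made up 17.7, 8.03 and 26.4% in male estradiol and 30.1, 30.8 and 12.4% in male DMSO. The sum called eIF4E here covers 7 genes, among them the more distant relatives eif4e2, eif4e2rs1 and eif4e3. Summed together, the 4 repressors stood at 2.53, 4.04 and 3.95 FPKM for each FPKM of eIF4E in female estradiol, against 18.8, 16.4 and 14.03 in female DMSO. In males the same ratio was 0.860, 2.78 and 1.35 under estradiol against 4.11, 5.57 and 2.89 under DMSO. Estradiol and DMSO libraries did not overlap in either sex, and no group overlapped female DMSO. Leaving the oocyte form eif4e1b out of the divisor, the ratio was 5.54, 4.04 and 5.18 in female estradiol against 18.9, 17.9 and 14.04 in female DMSO. It was 1.35, 2.78 and 1.94 in male estradiol against 4.11, 5.57 and 2.89 in male DMSO, again without overlap. Male estradiol replicate 2, at 2.78, lay close to male DMSO replicate 3, at 2.89. This divisor still held eif4ea, at 26.5 and 14.6 FPKM in the oocyte-rich male estradiol replicates 1 and 3 and 7.45 FPKM in replicate 2. The part of oocyte transcripts in the ratio was not tested otherwise. These ratios were described and not tested. The exocrine pancreas markers also had lower sums in the estradiol groups of both sexes, as given above, and their part in the ratios was not tested.

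The kinase gene eef2k was low in every female estradiol library. Its level was 2.45, 6.52 and 6.11 FPKM in female estradiol and 60.6, 44.6 and 51.4 FPKM in female DMSO, and in males 3.00, 32.3 and 7.49 FPKM under estradiol and 39.7, 31.7 and 22.6 FPKM under DMSO. In females it fell (log2 change -3.21, SE 0.64, adjusted p = 0.0251, limma). In males, estradiol replicates 1 and 3 lay below all DMSO libraries and replicate 2 within their range, and the difference did not pass the test (log2 change -1.60, SE 0.64, adjusted p = 0.147). In males the pair of low libraries are those rich in oocyte transcripts. Female estradiol replicate 2, with oocyte markers at 0.20, had 6.52 FPKM. Without the 4 oocyte-rich libraries, which leaves 1 library in each estradiol group, the log2 change was 0.078 in males and -2.81 in females. The part of oocyte transcripts in the eef2k level was not tested otherwise. The female call ended without any 1 of the 6 female libraries (adjusted p = 0.0529 to 0.102), without female DMSO replicates 1 and 2 (0.379), after quantile normalization (0.058) and after scaling without the 10 highest genes (0.0544), with log2 changes of -3.41 to -2.83. Over 24 alternatives its adjusted p ran over 0.00203 to 0.379. The substrate of the kinase, eEF2, is encoded mainly by eef2b, at 1253, 1694 and 1564 FPKM in female estradiol against 3191, 2242 and 3049 FPKM in female DMSO, and 619.7, 2589 and 1595 FPKM in male estradiol against 1455, 1268 and 1108 FPKM in male DMSO. Within a library, eef2k stood at 1.95, 3.85 and 3.90 FPKM for each 1000 FPKM of eef2b in female estradiol against 18.98, 19.9 and 16.9 in female DMSO, and at 4.84, 12.5 and 4.70 in male estradiol against 27.3, 24.96 and 20.4 in male DMSO. Under this ratio the estradiol libraries lay below the DMSO libraries in both sexes, without overlap. In male estradiol replicate 2 the low ratio came with a high divisor. Its eef2k, at 32.3 FPKM, lay within the male DMSO range, and its eef2b, at 2589 FPKM, lay above all male DMSO libraries. The ratio was described and not tested. The exocrine pancreas markers also had lower sums in the estradiol groups of both sexes, and their part in this ratio was not tested.

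**Figure D2:**
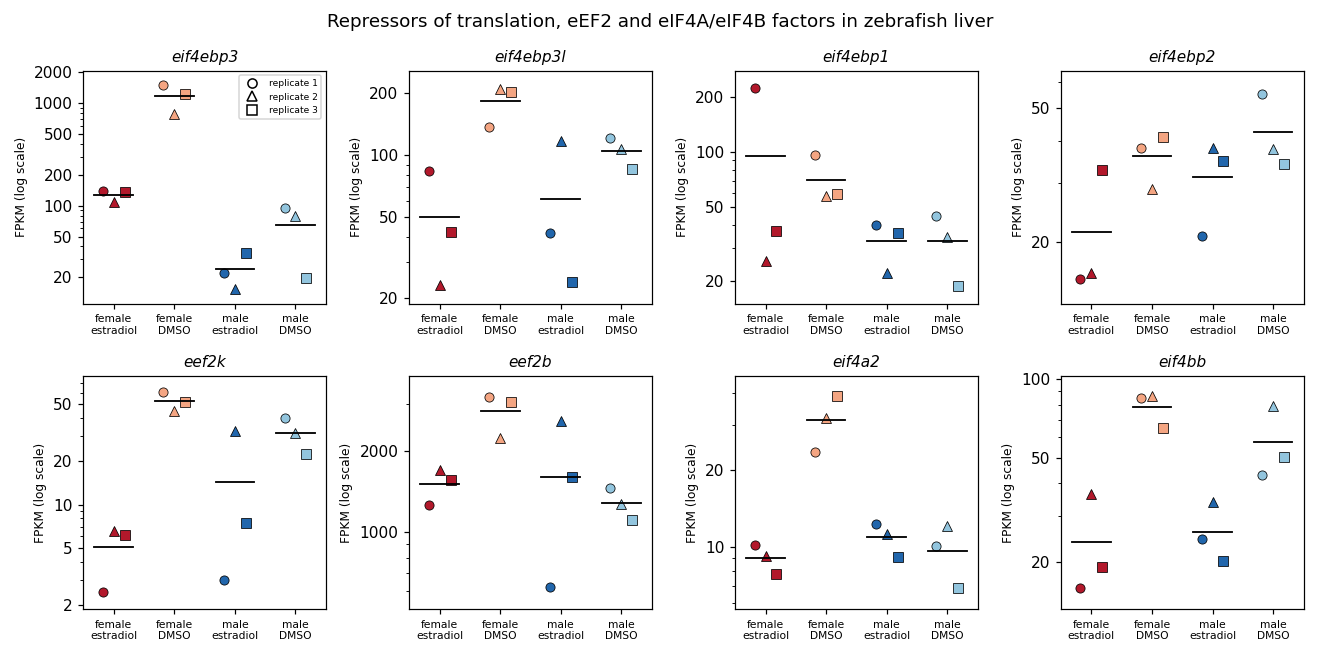
FPKM on a log axis for the 4 eIF4E-binding protein genes, the eEF2 kinase gene eef2k, its substrate gene eef2b and the factor genes eif4a2 and eif4bb in each of 12 libraries. Symbols mark replicates 1 to 3 and bars the mean of a group. Female DMSO is highest of the 4 groups for eif4ebp3, with 791 to 1493 FPKM, and all female estradiol libraries lie at or under 6.52 FPKM for eef2k.

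**Figure D3:**
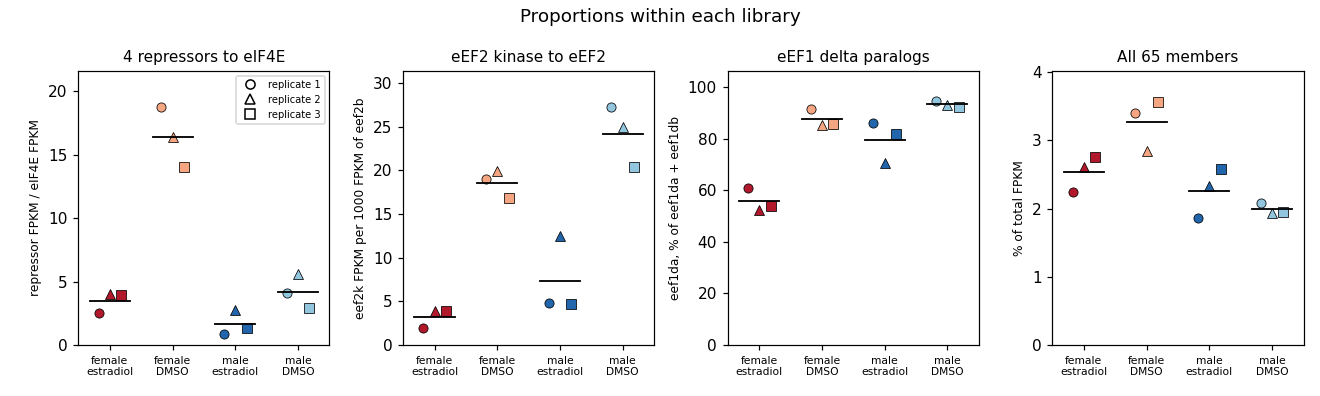
Proportions within each library, on linear axes from 0, with symbols for replicates and bars for group means: repressor FPKM per eIF4E FPKM, eef2k FPKM per 1000 FPKM of eef2b, eef1da as a percent of eef1da and eef1db, and the 65 members as a percent of the library's FPKM. The ratio of repressors to eIF4E is 14.0 to 18.8 in female DMSO and at most 5.57 in the other groups, and the eef1da share is at most 61.0% in female estradiol and at least 70.4% elsewhere.

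Among the cap-binding and unwinding factors, all 4 helicase genes of the eIF4A family had higher FPKM in female DMSO than in male DMSO without overlap (18.6% of all genes), and 3 of the 4 had lower FPKM in female estradiol than in female DMSO without overlap (18.8% of all genes). The gene eif4a2 had 10.1, 9.15 and 7.83 FPKM in female estradiol, 23.4, 31.9 and 38.8 FPKM in female DMSO, 12.3, 11.2 and 9.11 FPKM in male estradiol and 10.01, 11.98 and 6.89 FPKM in male DMSO. Female DMSO stood alone above the other 9 libraries, which spanned 6.89 to 12.3 FPKM. In females eif4a2 fell under estradiol (log2 change -1.67, SE 0.33, adjusted p = 0.0253, limma), and it had a log2 difference of 1.61 between the sexes under DMSO that missed the threshold (SE 0.33, adjusted p = 0.061). The female call ended without any 1 of the female DMSO libraries (adjusted p = 0.069, 0.0849 and 0.0911 for replicates 1 to 3), without female estradiol replicate 2 or 3 (0.0787 and 0.0664), without the 4 oocyte-rich or the 2 intestine-rich libraries (0.0614 and 0.29) and after scaling without the 10 highest genes (0.245), with a range of adjusted p over 24 alternatives of 0.0143 to 0.29. In these the log2 change was -1.997 to -1.34. The paralogs eif4a1a and eif4a1b, which encode the main helicase and may share reads, were the other two, with log2 changes of -1.56 and -1.62 that did not pass the test (adjusted p = 0.0823 and 0.113). In males the 3 genes had log2 changes of 0.18, 0.37 and -0.62, with overlap in each. The related eif4a3, whose protein belongs to the exon junction complex, had -0.33 in females and -0.13 in males.

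The helper of the helicase, eIF4B, is encoded by eif4ba and eif4bb, which differ in level. The abundant copy eif4bb had 16.01, 36.5 and 19.2 FPKM in female estradiol against 85.1, 86.1 and 65.02 FPKM in female DMSO, and 24.5, 33.9 and 20.1 FPKM in male estradiol against 43.2, 78.8 and 50.4 FPKM in male DMSO. No estradiol library reached the DMSO range of its sex. It fell in females (log2 change -1.75, SE 0.40, adjusted p = 0.0415, limma), and the male difference did not pass the test (log2 change -1.09, SE 0.40, adjusted p = 0.125). Sums of the exocrine pancreas markers were also lower in the estradiol groups of both sexes, and their part in the eif4bb level was not tested. The female call was the weakest of the 4: it held in 8 of 24 alternatives, and the adjusted p ran over 0.021 to 0.555. It ended after all 3 other scalings (adjusted p = 0.131 for quantile normalization, 0.0951 for median-of-ratios scaling and 0.301 without the 10 highest genes, with log2 changes of -1.51 to -1.41) and with the oocyte covariate (0.063, log2 change -1.51). Without the oocyte-rich libraries the log2 change was -1.08 (0.153), and without the intestine-rich ones -1.49 (0.555). It also ended in a fit of the 2 female groups only (0.0615) and without each female DMSO library (0.0809 to 0.169), female estradiol replicates 1 and 3 (0.0894 and 0.0959), each male DMSO library (0.0639 to 0.0681) and male estradiol replicate 3 (0.0549), with log2 changes of -1.88 to -1.52. The scarce copy eif4ba had 7.50, 9.23 and 6.88 FPKM in male estradiol against 3.48, 3.13 and 4.74 FPKM in male DMSO, higher without overlap but not past the test (log2 change 0.90, SE 0.34, adjusted p = 0.136), and 6.16, 4.87 and 2.58 FPKM in female estradiol against 3.87, 4.34 and 5.82 FPKM in female DMSO, with overlap.

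Of the 65 members, eif4a2 and eif4g2a had the smallest p for a difference between the sexes in the estradiol effect, and neither passed the test. The eif4g2 genes encode a relative of the scaffold eIF4G that lacks the site for eIF4E. For eif4g2a the levels were 12.4, 8.71 and 13.2 FPKM in female estradiol against 25.9, 23.04 and 37.6 FPKM in female DMSO, and 42.6, 38.5 and 15.6 FPKM in male estradiol against 15.02, 11.4 and 15.7 FPKM in male DMSO. All female estradiol libraries lay below female DMSO, while male estradiol replicates 1 and 2 lay above male DMSO and replicate 3 within its range. The difference between the effects was -2.29 on the log2 scale (SE 0.58, adjusted p = 0.211, limma), for eif4g2b it was -1.49 (adjusted p = 0.302), and for eif4a2 -1.85 (adjusted p = 0.211). Under estradiol, females had lower levels of eif4g2a, eif4g2b and eif4ba than males without overlap, and none of these 3 passed the test.

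The family of the cap-binding protein eIF4E has 7 genes among the members, with the more distant relatives eif4e2, eif4e2rs1 and eif4e3 counted in. The fish form eif4e1c had 19.1, 8.59 and 10.4 FPKM in female estradiol against 40.8, 29.6 and 53.7 FPKM in female DMSO, lower without overlap and not past the test (log2 change -1.67, SE 0.48, adjusted p = 0.0878). In males it had 23.2, 32.6 and 13.2 FPKM under estradiol and 20.6, 8.17 and 20.4 FPKM under DMSO, with overlap. The widespread forms eif4ea and eif4eb had log2 changes of -0.39 and -0.54 in females and 1.24 and 0.05 in males, where the 26.5, 7.45 and 14.6 FPKM of eif4ea under estradiol lay above the 5.83, 4.45 and 6.37 FPKM under DMSO without overlap (adjusted p = 0.209). Of the more distant relatives, eif4e3 had 0.79 and -0.55, and eif4e2rs1 0.39 and 0.24, in the same order of sexes.

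The form known from the ovary of fish and frogs, eif4e1b, was high where the oocyte markers were high. Its level was 99.05, 0 and 14.8 FPKM in female estradiol, 0.606, 5.60 and 0.102 FPKM in female DMSO, 52.8, 0.105 and 29.4 FPKM in male estradiol and 0, 0 and 0.0612 FPKM in male DMSO. The 4 estradiol libraries rich in oocyte markers held 14.8 to 99.0 FPKM, female DMSO replicate 2, whose oocyte markers stood at 3.16, held 5.60 FPKM, and no other library passed 0.606 FPKM. It passed the filter only through these 5 libraries, so a difference between libraries was bound to show. In the oocyte-rich libraries eif4e1b made up 54.4% and 23.7% of the summed eIF4E FPKM in females and 36.4% and 30.5% in males. Its log2 changes under estradiol, 2.36 in females and 3.58 in males, did not pass the test (adjusted p = 0.438 and 0.176), and with the oocyte marker level as a covariate the male value was -1.08 (adjusted p over the 24 alternatives 0.0203 to 0.529). The 4E-T gene eif4enif1, whose protein binds eIF4E and represses messenger RNAs in the oocyte, had 5.25, 0.775 and 6.63 FPKM in female estradiol, 1.67, 2.97 and 1.59 FPKM in female DMSO, 22.7, 2.04 and 7.03 FPKM in male estradiol and 2.36, 1.95 and 1.55 FPKM in male DMSO, and was likewise highest in the 4 oocyte-rich libraries. The part of oocyte transcripts in the values of these genes was not tested otherwise.

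**Figure D4:**
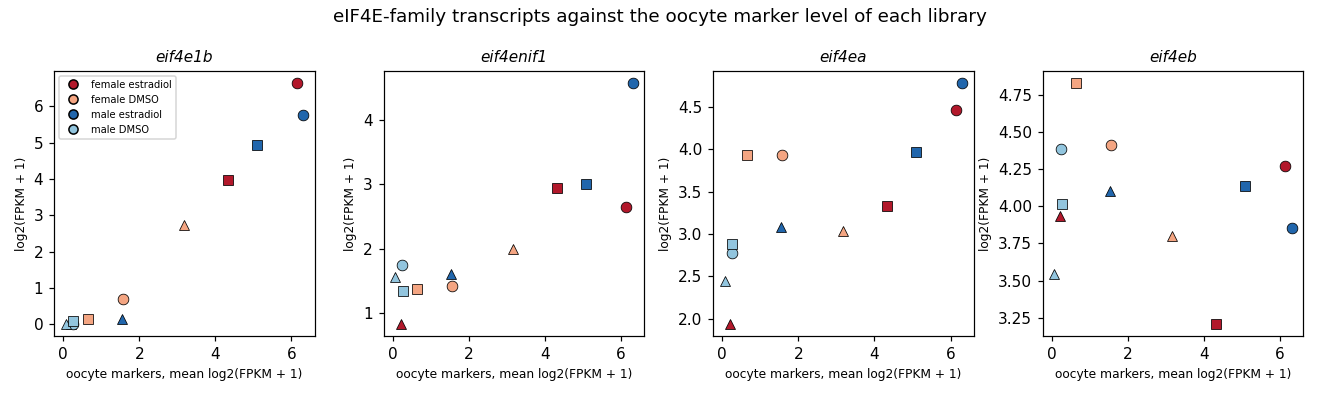
Log2(FPKM + 1) of eif4e1b, eif4enif1, eif4ea and eif4eb against the mean log2(FPKM + 1) of 24 oocyte markers, 1 point per library, with colours for the 4 groups and symbols for replicates 1 to 3 as circle, triangle and square. The 4 libraries right of 4 on the horizontal axis are replicates 1 and 3 of the estradiol groups, and they hold the highest eif4e1b and eif4enif1 levels, while eif4eb shows no such order. For eif4ea, male estradiol replicates 1 and 3 (26.5 and 14.6 FPKM) and female estradiol replicate 1 (21.1 FPKM) stand highest. Female estradiol replicate 3, at 9.08 FPKM, does not.

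The 16 eIF3 genes, subunits of the scaffold that binds the small ribosomal subunit, had log2 changes of one sign in females given estradiol. All 16 were negative, from -1.55 to -0.07 with a median of -0.61, and 7 lay lower without overlap (18.8% of all genes). Under the 3 other scalings 13 to 15 of 16 stayed negative, with medians of -0.37 to -0.23. In males 15 of 16 were negative, with a median of -0.42, and 3 lay lower without overlap (11.4% of all genes), but after scaling without the 10 highest genes 9 of 16 were positive and the median was 0.06. Limma called 0 of them in either sex, with 3 and 1 at an unadjusted p under 0.05 in females and males, where 1743 of 9190 genes in females and 26.9% in males had one. Under DMSO, 12 of 16 were higher in females without overlap (18.6% of all genes), with a median of 0.62. The loosely bound subunit gene eif3jb came nearest to the threshold, with 9.30, 5.52 and 4.82 FPKM in female estradiol against 24.5, 16.3 and 21.4 FPKM in female DMSO (log2 change -1.55, SE 0.40, adjusted p = 0.0625). The small subunit gene eif3k had 36.1, 113 and 72.8 FPKM in male estradiol against 164, 163 and 188 FPKM in male DMSO, lower without overlap (log2 change -1.35, SE 0.55, adjusted p = 0.154), and 275, 66.5 and 74.8 FPKM in female estradiol, where replicate 1 stood above female DMSO at 224, 239.8 and 265 FPKM. The scarce copy eif3hb ranged widely within groups, from 0 to 7.82 FPKM in female estradiol and 1.43 to 13.9 FPKM in male estradiol, and its reads may be shared with the abundant eif3ha.

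The genes of eIF2 and its exchange factor eIF2B had smaller log2 changes in females than the eIF4A genes, with medians of -0.49 for 4 eIF2 genes and -0.20 for 5 eIF2B genes. Under some other scalings the eIF2B median was positive, up to 0.10. The subunit gene eif2s1b, for the alpha subunit that stress kinases phosphorylate, had 77.5, 53.9 and 49.8 FPKM in female estradiol against 103, 87.3 and 102 FPKM in female DMSO, lower without overlap and not past the test (log2 change -0.70, SE 0.38, adjusted p = 0.34). For eif2s3, the gamma subunit, the female log2 change was -0.62 (adjusted p = 0.458) with overlap. All 5 eIF2B genes had positive log2 changes in males given estradiol, from 0.16 to 1.30, and 2 of 5 in females. Under quantile normalization 3 of 5 were positive in males. The largest male value was that of eif2b3, with 10.3, 5.31 and 4.77 FPKM under estradiol against 2.32, 1.35 and 2.55 FPKM under DMSO, higher without overlap and not past the test (log2 change 1.30, SE 0.47, adjusted p = 0.121). For eif2b1 the difference between the sexes in the estradiol effect was -0.92 (adjusted p = 0.636). Outside eIF2 itself, eif2a and eif2d, of alternative initiation, had log2 changes of -0.61 and -0.17 in females and -0.39 and 0.49 in males, where eif2a lay lower and eif2d higher without overlap.

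Factors of start-site choice and subunit joining had no call. The gene eif1b had 72.4, 78.03 and 108 FPKM in female estradiol against 142, 147 and 143 FPKM in female DMSO, lower without overlap (log2 change -0.76, SE 0.46, adjusted p = 0.393), and its male log2 change was -1.07 (adjusted p = 0.167). For eif1axa, a copy of eIF1A, the changes were -0.27 in females and 0.94 in males. The gene eif5, of the GTPase-activating factor of eIF2, had 0.09 and 0.30, and eif6, whose protein keeps the subunits apart, -0.16 and 0.26, each with overlap. The sign of the female eif6 value was positive under all 3 other scalings, at 0.08 to 0.17.

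Elongation factors held most of the FPKM of the family. The 65 members held 2.25, 2.60 and 2.75% of all FPKM in female estradiol, 3.40, 2.84 and 3.57% in female DMSO, 1.87, 2.33 and 2.59% in male estradiol and 2.08, 1.94 and 1.95% in male DMSO. Female DMSO lay above each other group by this measure, and 10 elongation factor genes held 68.2% to 83.7% of the members' FPKM over the 12 libraries. The top gene, eef1a1l1, which encodes eEF1A, had 9709, 4574 and 4951 FPKM in female estradiol, 11902, 7918 and 13176 FPKM in female DMSO, 1589, 6467 and 6277 FPKM in male estradiol and 5784, 5523 and 5001 FPKM in male DMSO. Male estradiol replicate 1 stood lowest, as it did for the summed FPKM of its library, and the log2 changes under estradiol were -0.83 in females and -0.44 in males (adjusted p = 0.459 and 0.664). A copy of the same protein, eef1a1l2, had 22.3, 95.8 and 1.23 FPKM in male estradiol and 0.791, 1.32 and 124 FPKM in male DMSO, so 1 library held most of its FPKM in each of these groups. It had at most 3.61 FPKM in any female library, and reads of such near-identical copies can be split uncertainly.

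The exchange complex that reloads eEF1A has a delta subunit with a pair of genes. The more abundant one, eef1da, had 1152, 299 and 321 FPKM in female estradiol against 2187, 1751 and 2106 FPKM in female DMSO, and 221, 757 and 458 FPKM in male estradiol against 1645, 1574 and 1464 FPKM in male DMSO. Every estradiol library lay below every DMSO library, but neither sex passed the test (log2 change -2.06, SE 0.58, adjusted p = 0.0824 and, in males, log2 change -1.87, SE 0.58, adjusted p = 0.0889). After scaling without the 10 highest genes both passed, with log2 changes of -1.73 in females and -1.39 in males (adjusted p = 0.0106 and 0.0208). After quantile normalization both sexes passed too, with log2 changes of -1.36 and -1.37 (adjusted p = 0.0465 and 0.0301, limma). After median-of-ratios scaling eef1da passed in males (log2 change -1.94, adjusted p = 0.0461, limma) and not in females. Its partner eef1db had 737, 271 and 273 FPKM in female estradiol, 199, 299.8 and 350.2 FPKM in female DMSO, 36.2, 318 and 102 FPKM in male estradiol and 94.4, 118 and 119 FPKM in male DMSO, with overlap between treatments in both sexes. Of the 2 delta genes together, eef1da thus gave 60.98, 52.4 and 53.97% in female estradiol against 91.7, 85.4 and 85.7% in female DMSO, and 85.9, 70.4 and 81.8% in male estradiol against 94.6, 93.1 and 92.5% in male DMSO, with no overlap in either sex. The pancreas markers also differed between treatments in both sexes, and their part in this share was not tested. The beta subunit gene eef1b2 had 4919.7, 1235 and 1681 FPKM in female estradiol against 2120.0, 1947 and 2197 FPKM in female DMSO, and 465, 1459.6 and 1314 FPKM in male estradiol against 695, 705 and 757 FPKM in male DMSO. The gamma subunit gene eef1g had log2 changes of -0.17 in females and 0.52 in males, and neither eef1b2 nor eef1g passed the test. After quantile normalization both passed in males (log2 change 1.21 for eef1b2 and 1.30 for eef1g, adjusted p = 0.0268 and 0.00925, limma). After median-of-ratios scaling or scaling without the 10 highest genes neither passed in males. Every eef1b2 library of male estradiol but replicate 1 stood above male DMSO. Under DMSO, eef1b2, eef1g, eef1da and eef1db were each higher in females than in males without overlap, by log2 differences of 1.54, 1.42, 0.36 and 1.32 (adjusted p = 0.314, 0.334, 0.903 and 0.498). After quantile normalization eef1b2 and eef1g passed there (adjusted p = 0.021 and 0.0163, limma). In a fit of the 2 DMSO groups only, eef1b2, eef1g and eef1db passed (adjusted p = 0.00435, 0.00924 and 0.0197) and eef1da did not. After median-of-ratios scaling or scaling without the 10 highest genes none of these genes passed between the sexes under DMSO. The share of all genes called in these alternative fits is not given here.

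The hypusine-bearing factor eIF5A, which helps the ribosome past difficult stretches, has a pair of genes. The less abundant, eif5a2, had 267, 157 and 232 FPKM in female DMSO against 92.3, 73.2 and 54.8 FPKM in male DMSO, higher without overlap (log2 difference 1.56, SE 0.38, adjusted p = 0.104). In the estradiol groups it had 190.5, 121 and 143 FPKM in females and 87.6, 120.5 and 135 FPKM in males, which overlap. The abundant eif5a had log2 changes of -0.68 in females and -0.26 in males given estradiol. The minor eEF2 gene eef2a.1 had 5.50, 3.09 and 3.45 FPKM in female estradiol against 8.09, 8.05 and 8.38 FPKM in female DMSO, lower without overlap (log2 change -0.90, SE 0.35, adjusted p = 0.182), and the difference of this effect from that in males was -1.35 (adjusted p = 0.364).

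Other genes of translation were read from 5 further lists. The genes named from them are those past the threshold. Of 16 cytosolic tRNA synthetase genes tested, 1 fell and 0 rose in females given estradiol (2.24% and 0.490% of all genes), with a median log2 change of -0.93, and 11 lay lower without overlap (18.8% of all genes). Under the 3 other scalings the median was -0.70 to -0.61, with 15 of 16 negative. The call was of mars, the methionyl-tRNA synthetase gene, with 8.31, 10.1 and 6.73 FPKM in female estradiol against 32.01, 21.4 and 24.6 FPKM in female DMSO (log2 change -1.52, SE 0.34, adjusted p = 0.0391). Under DMSO, 15 of these 16 were higher in females than in males without overlap (18.6% of all genes), with a median of 1.05. Of 7 mitochondrial translation factors, 2 fell in females (2.24% of all genes), tufm and tsfm, the mitochondrial elongation factors Tu and Ts. Tufm had 29.2, 33.2 and 20.2 FPKM in female estradiol against 99.3, 80.3 and 81.5 FPKM in female DMSO (log2 change -1.65, SE 0.32, adjusted p = 0.0215). Tsfm had 4.16, 3.52 and 2.40 FPKM in female estradiol against 20.5, 10.7 and 22.3 FPKM in female DMSO (log2 change -2.07, SE 0.41, adjusted p = 0.0242). For all 3 called genes the groups did not overlap. Of 9 genes of the integrated stress response, the pathway that starts with phosphorylation of eIF2, 1 rose in males (3.79% of all genes were called there in either direction), sesn2, an inhibitor of mTORC1, with 14.3, 19.3 and 4.09 FPKM under estradiol against 2.02, 1.28 and 1.43 FPKM under DMSO (log2 change 2.19, SE 0.54, adjusted p = 0.0453). In females limma called 0 of these 9, with 1 at an unadjusted p under 0.05. Of 14 genes of mTOR control of translation limma called 0 in either sex, with 4 in females and 1 in males at an unadjusted p under 0.05 (1743 of 9190 genes in females and 26.9% in males). Of 9 genes of poly(A) binding and termination it called 0 as well, with 5 in females and 1 in males at an unadjusted p under 0.05. The 16 synthetases had a median log2 change of 0.32 in males, with 0 higher and 0 lower past the threshold and 0 at an unadjusted p under 0.05.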

How the data were processed

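Reads were trimmed (cutadapt), aligned (TopHat2 2.0.11) and quantified (Cufflinks 2.2.1) by the authors against danRer7, per the submitters' processing notes; the annotation is not given in the sources used here. The deposited table gives FPKM per gene symbol and library, a unit inferred from its values and from Cufflinks. Whole fragments could not be recovered (at most 1.06% of 2085 low genes shared a bin of 0.01 in log2 ratio), so no counting interval is given. All 69 symbols are current in RefSeq GRCz12tu, but there eif4ebp3 is also an older name of eif4ebp3l, and eif1b of eif1, so with the annotation unknown the gene behind these 2 symbols is uncertain. The builds differ, so no coordinates or sequences are given.

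Values were fitted as log2(FPKM + 1), which understates changes of low genes. Limma 3.58.1 in R 4.3.3 (group means, eBayes with trend) gave 5 contrasts, with Benjamini-Hochberg adjustment over all genes tested and a threshold of 0.05. The fit was tested on simulated data with known changes and the same spread of a gene in all groups. That simulation does not cover the wider spread among the estradiol libraries. Summaries used Python 3.11.15, pandas 2.3.3 and matplotlib 3.10.9. Alternatives covered pseudocount, filter, scaling, an oocyte covariate, a replicate block and left-out libraries.

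Named are members past the threshold, the 2 smallest p per role in the estradiol contrasts or interaction, all repressors, the 6 most abundant, the 6 most variable within a group and those near the filter. Added after their values were seen were eif3f, eif3g, eif3ha, eif4a1b, eif4a3, eif4ea, eif4eb, eif4e3 and eif4e2rs1. The members and lists were chosen with earlier results of these data known.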

Additional observations from a re-analysis of the deposited data

How the results depend on the processing

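With 3 libraries a group, few residual degrees of freedom and unknown depth, counts of calls move with single libraries. In males given estradiol, 0 members were called as reported, 3 with quantile normalization, 1 with median-of-ratios scaling, 1 with scaling without the 10 highest genes and 4 without the 4 oocyte-rich libraries; leaving out 1 library gave 0 to 8, with 8 without male estradiol replicate 2. The male median was 0.38 after scaling without the 10 highest genes and 0.24 without the oocyte-rich libraries. In females given estradiol, 4 were called as reported. After that scaling 1 was called, eef1da, which is not among those 4, and 0 without the 2 intestine-rich female DMSO libraries; leaving out 1 library gave 0 to 9. The lowest was 0 without female DMSO replicate 1, and the count was 1 without female DMSO replicate 2 or 3 or female estradiol replicate 2 or 3. It was 7 without male estradiol replicate 1 and 9 without male estradiol replicate 2. The difference between the effects gave 0 as reported, 0 with any library left out and 8, all lower, without the oocyte-rich libraries, where its median was -1.01. Between the sexes under DMSO, 1 became 2 with a filter of 5 FPKM or none, 4 after quantile normalization, 14 without the oocyte-rich libraries, 16 in a fit of those 2 groups only, 0 without the intestine-rich libraries and 1 to 2 with 1 library left out. Between the sexes under estradiol, 0 became 3 without the oocyte-rich libraries, which leaves 1 library in each estradiol group, assumed to vary like the others. The share of all genes called in each of these settings is not given here, so the counts cannot be read as a trait of the members. The causes of these moves were not tested.

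The alternatives to counts without overlap were chosen after seeing the data. The 24 members lower in females given estradiol became 14 after scaling without the 10 highest genes (8.59% of all genes), 52 without the oocyte-rich libraries (46.5%) and 24 to 45 with 1 library left out, with 45 without female estradiol replicate 1 (30.1%); fewer libraries make non-overlap easier. The 43 higher in females under DMSO stood at 35 to 48 under the scalings and without the intestine-rich libraries, where 13.8% to 32.8% of all genes did so.

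Some single genes changed sign. With the oocyte marker covariate the male log2 change was -0.21 for eif4enif1, -1.08 for eif4e1b and -1.20 for eif4ebp1. Without the oocyte-rich libraries it was 0.078 for eef2k, 0.17 for eif4ebp3l and -0.47 for eif4ebp1. For eif4ebp1 it was -0.013 after median-of-ratios scaling and -0.30 to 0.31 with 1 library left out, and for eif4ebp2 0.031 after scaling without the 10 highest genes. The female value of eif4ebp1 was 0.13 with quantile normalization and with scaling without the 10 highest genes, 0.039 after median-of-ratios scaling, 0.016 without the intestine-rich libraries and -1.13 to 0.40 with 1 library left out. The eif6 difference between the effects was -1.15 to 0.0078 with 1 library left out.

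With the replicate block limma called 0 in males, 4 in females, 0 for the difference, 1 between the sexes under DMSO and 0 under estradiol, as without it. Same-numbered libraries deviated together (r over 0.1) in 4 of 18 pairs, with r of -0.433 to 0.573, and no pair of groups had all 3 over 0.1. The highest, 0.494 and 0.573, were replicates 1 and 2 of female and male estradiol, in which replicates 1 and 3 of both sexes are oocyte-rich. Whether same-numbered libraries share anything more than a number is not given by the labels.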
